A study of Mus musculus with 4 samples.

Results

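The genes described here are 7 genes that astrocytes use to clear glutamate and potassium and to couple to each other, chosen by name and followed through every class of nuclei, both dissected regions and both libraries of a mouse brain injury study. They are Slc1a2 (ENSMUSG00000005089), Slc1a3 (ENSMUSG00000005360), Glul (ENSMUSG00000026473), Kcnj10 (ENSMUSG00000044708), Gja1 (ENSMUSG00000050953), Gjb6 (ENSMUSG00000040055) and Slc4a4 (ENSMUSG00000060961), 7 of the 33696 gene features counted. Brains carried a photothrombotic (PT) lesion, a focal cortical injury produced by lighting a dye in the circulation, and were taken at 21 days post-injury (dpi). The library labelled control came from mice of the genotype label WT and the library labelled Cxcl12-cKO from mice labelled Col1a2(creER); Cxcl12(flox), in which a Cre recombinase that needs tamoxifen is driven by a fibroblast collagen gene. All mice of both groups were injured, and ages were not given in the labels. Each library pooled tissue of 1 female and 1 male mouse, and lesional nuclei and nuclei of the adjacent parenchyma were tagged separately and mixed at 75% and 25%.

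Astrocytes take up synaptic glutamate through the transporters encoded by Slc1a2 and Slc1a3, and glutamine synthetase, encoded by Glul, turns it into glutamine that neurons can reuse. The inward rectifier channel encoded by Kcnj10 carries potassium into astrocytes, and the connexins encoded by Gja1 and Gjb6 form the gap junctions through which neighbouring astrocytes share ions and small solutes. Slc4a4 encodes an electrogenic sodium bicarbonate cotransporter that links acid and base balance to membrane potential. Lower levels of several of these proteins have been described in reactive astrocytes around brain lesions, and connexins and glutamine synthetase are also used by other cells, such as meningeal fibroblasts and oligodendrocytes.

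The promoters of 3 members are shown because these genes differed in opposite directions between the libraries in the same class of nuclei, the connexin genes Gja1 and Gjb6 and the transporter gene Slc1a3. Slc1a3 differed by less than 1.5-fold, and all 3 differences depended on the nuclei chosen, as given below. The windows run from 250 bases before to 50 after the start that RefSeq gives on the GRCm38.p6 build, 5′ to 3′ on the gene's strand. Gja1 is on chr10:56377050-56377349 (plus strand), Gjb6 on chr14:57133562-57133861 (minus strand) and Slc1a3 on chr15:8710758-8711057 (minus strand). Capitals mark matches, on either strand, to the AP-1 motif TGANTCA or to the STAT motif TTCNNNGAA.
Gja1: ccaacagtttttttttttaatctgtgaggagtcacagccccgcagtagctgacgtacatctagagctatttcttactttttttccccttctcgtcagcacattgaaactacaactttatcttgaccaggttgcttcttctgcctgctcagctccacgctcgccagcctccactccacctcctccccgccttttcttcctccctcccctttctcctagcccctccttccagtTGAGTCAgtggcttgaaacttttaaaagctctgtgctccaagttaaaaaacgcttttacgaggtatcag
Gjb6: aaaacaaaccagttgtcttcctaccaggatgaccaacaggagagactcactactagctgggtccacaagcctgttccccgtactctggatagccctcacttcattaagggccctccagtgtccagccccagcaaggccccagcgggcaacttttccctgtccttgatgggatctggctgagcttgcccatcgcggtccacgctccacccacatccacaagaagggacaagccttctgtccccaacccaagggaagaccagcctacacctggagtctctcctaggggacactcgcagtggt
Slc1a3: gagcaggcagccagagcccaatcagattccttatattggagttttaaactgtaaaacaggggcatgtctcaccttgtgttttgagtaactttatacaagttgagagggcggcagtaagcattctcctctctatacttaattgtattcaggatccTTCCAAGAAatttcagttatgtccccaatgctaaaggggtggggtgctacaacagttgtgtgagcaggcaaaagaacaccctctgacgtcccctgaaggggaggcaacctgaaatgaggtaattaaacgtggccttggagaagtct
The Gja1 window held 1 match to the AP-1 motif, which was present in 7.81% of 32851 promoter windows of the same length. The Slc1a3 window held 1 match to the STAT motif, present in 8.30% of windows, and the Gjb6 window held neither. A match describes these letters only and says nothing about binding.

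After filtering, 21743 nuclei remained, at medians of 2962 and 2975 UMIs (unique molecular identifiers, which count transcripts) in the lesion and 15915 and 16648 in the parenchyma of the control- and cKO-labelled libraries. No barcode was shared between the regions of a library and 1 to 22 were shared between matrices of different libraries. The targeted gene Cxcl12 was higher under the knockout label, at 106 CPM (95% Poisson interval 101 to 111) in lesional fibroblast-like nuclei labelled control and 216 CPM (208 to 223) in the cKO-labelled ones. Which part of Cxcl12 was deleted is not stated in the labels or methods, so this count does not check the deletion, and every direction given here follows the labels, not a checked genotype. With 1 library per group there was no replicate check and no test. Levels are given as CPM, the UMIs of a gene per 1000000 UMIs of all genes in the same nuclei, and intervals are exact 95% intervals that cover counting error only.

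Nuclei were named by markers that included none of the 7 genes. The astrocyte-like class was made up of 3 subclusters with 326, 152 and 467 nuclei, in which 9, 11 and 8 of 11 astrocyte markers were higher than in the other nuclei. It held 418 and 444 lesional nuclei and 37 and 46 parenchymal nuclei in the control- and cKO-labelled libraries, at medians of 3381, 3733, 4902 and 5101 UMIs. All 11 astrocyte markers were counted in each of these 4 groups. They summed to 3369 and 3079 CPM in the lesion and to 10587 and 10462 CPM in the parenchyma of the control- and cKO-labelled libraries. Among markers of other classes, the fibroblast list summed to between 220 and 314 CPM and the myeloid list to between 60.2 and 81.7 CPM over the 4 groups, and the B cell markers Cd79a, Cd79b and Pax5 were at 0 in all 4. The oligodendrocyte precursor list summed to 3883 and 3053 CPM in the lesion and 2652 and 2774 CPM in the parenchyma, where Pdgfra was at 0. In the lesion of the control-labelled library the precursor sum was above the astrocyte sum. UMIs of genes of both sexes, which doublets or free RNA can give, occurred in 6.70% and 10.8% of lesional and 8.11% and 17.4% of parenchymal astrocyte-like nuclei. With these nuclei removed, 2 members passed the fold in the comparison of libraries and 4 in that of regions, as with them.

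Slc1a2 was highest in astrocyte-like nuclei of both regions, and of the lesional neurons it was high in excitatory-neuron-like but not in inhibitory-neuron-like nuclei. In the lesion it was counted at 2069.5 CPM (1999 to 2141.4) in astrocyte-like nuclei labelled control and 2087 CPM (2025 to 2151) in the cKO-labelled ones. Ependymal-like nuclei followed with 1027 and 1036 CPM, and excitatory-neuron-like nuclei with 523 and 572 CPM. The ranges of these 3 classes did not overlap. Of the 210 ependymal-like nuclei, 37.6% held UMIs of genes of both sexes, and 9 astrocyte markers were up in this class. The part of doublets in the ependymal-like levels of this and the other members was not tested. Inhibitory-neuron-like nuclei held 45.7 and 37.3 CPM. Fibroblast-like nuclei, at 23.4 and 28.2 CPM, and myeloid-like nuclei, at 30.6 and 32.0 CPM, were near the bottom. After thinning every nucleus to 1000 UMIs, an Slc1a2 UMI was found in 64.2% and 72.6% of lesional astrocyte-like nuclei (unthinned 85.6% and 89.0%) with 2 nuclei left out of each group. The same share was 36.7% and 44.9% in lesional excitatory-neuron-like nuclei (unthinned 93.3% and 94.0%, at medians of 13917 and 12781 UMIs), with 0 and 1 left out. For myeloid-like nuclei, a class not known to use Slc1a2, the share was 3.17% and 3.84% after thinning (unthinned 6.76% and 7.91%, at medians of 2160 and 2364 UMIs), with 103 and 123 left out. In T-cell-like nuclei it was higher, at 10.0% (4.90 to 17.6%) and 10.0% (4.68 to 18.1%) after thinning, with 26 and 17 left out. The share in excitatory-neuron-like nuclei was above that of both these classes in both libraries. In 27 and 31 parenchymal oligodendrocyte-like nuclei Slc1a2 stood at 1645 and 496 CPM, against 81.7 and 84.8 CPM in 188 and 198 lesional ones, and it was found in 18.5% and 16.1% of the parenchymal nuclei after thinning. These shares lay near the upper limits in T-cell-like nuclei, and the part of free RNA or doublets in them was not tested.

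Slc1a3 had a wider distribution. Lesional astrocyte-like nuclei held 1967 CPM (1899 to 2037) in the control-labelled library and 2718 CPM (2647 to 2791) in the cKO-labelled library. Ependymal-like nuclei were next at 1008 and 1379 CPM, followed by fibroblast-like nuclei at 416 and 519 CPM, and the ranges of the 3 classes did not overlap. Oligodendrocyte-like, osteoblast-like and myeloid-like nuclei held between 118 and 199 CPM, and the first and second of these overlapped. Excitatory-neuron-like nuclei, at 8.84 and 8.94 CPM, had almost none. The share of Slc1a2 in the summed UMIs of both transporters was accordingly 98.3% and 98.5% in lesional excitatory-neuron-like nuclei and 5.31% and 5.16% in lesional fibroblast-like nuclei.

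Glul was not highest in astrocyte-like nuclei of the lesion. Oligodendrocyte-like nuclei were at 257 and 225 CPM, fibroblast-like nuclei at 220 and 174 CPM, ependymal-like nuclei at 195.5 and 161 CPM and astrocyte-like nuclei at 194 and 159 CPM, and the ranges of neighbours in this order overlapped within each library, except that oligodendrocyte-like nuclei (191 to 264) stood above fibroblast-like nuclei (168 to 181) in the cKO-labelled one. Both kinds of neurons were at 13.7 CPM or below in the lesion. Kcnj10 was found along the glial lineages. It stood at 88.3 and 98.0 CPM in oligodendrocyte-like, 89.9 and 58.7 CPM in oligodendrocyte-precursor-like, 72.9 and 73.6 CPM in astrocyte-like and 54.1 and 49.4 CPM in ependymal-like nuclei of the lesion. The ranges of neighbours in this order overlapped, whereas in the cKO-labelled library the oligodendrocyte-like range lay above the ependymal-like one. Fibroblast-like nuclei had 11 and 18 Kcnj10 UMIs among 4176 and 4111 nuclei, or 0.767 and 1.21 CPM.

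The connexin genes were counted in fibroblast-like as well as astrocyte-like nuclei. Gja1 was highest in osteoblast-like nuclei of the lesion, at 472 CPM (428 to 518) and 511 CPM (419 to 616) in 343 and 85 nuclei. Astrocyte-like nuclei at 165 and 105 CPM, ependymal-like nuclei at 114 and 113 CPM and fibroblast-like nuclei at 107 and 92.1 CPM followed. In the control-labelled library the astrocyte-like range of Gja1 (145 to 186) lay above the ependymal-like (90.4 to 141) and fibroblast-like (101 to 112) ranges, and in the cKO-labelled library the 3 ranges overlapped. Gjb6 was highest in fibroblast-like nuclei, at 110 CPM (105 to 116) and 90.5 CPM (85.7 to 95.4), and the ranges did not overlap with those of the next class. Ependymal-like nuclei held 56.8 and 58.3 CPM, and T-cell-like nuclei 51.5 CPM (27.4 to 88.0) and 41.3 CPM (17.8 to 81.4). Astrocyte-like nuclei held 47.1 CPM (37.1 to 59.1) and 25.2 CPM (18.8 to 33.1), within the T-cell-like range of each library. Myeloid-like nuclei were lower, at 14.2 and 14.5 CPM. The part of free RNA or doublets in the astrocyte-like Gjb6 level was not tested. After thinning, a Gjb6 UMI was found in 11.1% and 9.04% of lesional fibroblast-like nuclei (unthinned 25.8% and 22.0%, 108 and 97 left out), 3.85% and 3.85% of astrocyte-like nuclei and 0.198% and 0% of excitatory-neuron-like nuclei. Of the summed UMIs of Gja1 and Gjb6, the Gjb6 share was 50.8% and 49.5% in fibroblast-like, 22.3% and 19.4% in astrocyte-like and 2.47% and 1.80% in osteoblast-like nuclei.

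Slc4a4 was shared by astrocyte-like and fibroblast-like nuclei and by 1 cluster that took no name. Lesional astrocyte-like nuclei held 1149 and 1283 CPM, ependymal-like nuclei 664 and 943 CPM, fibroblast-like nuclei 564 and 633 CPM and inhibitory-neuron-like nuclei 315 and 303 CPM. The unnamed cluster, whose 10 leading genes included Drd2 and Adora2a, held 978 and 925 CPM in 112 and 126 parenchymal nuclei and 1373 CPM in 52 lesional nuclei labelled Cxcl12-cKO. Its other members were low, with 36.8 CPM of Slc1a2 at most in these 3 groups.

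**Figure D1:**
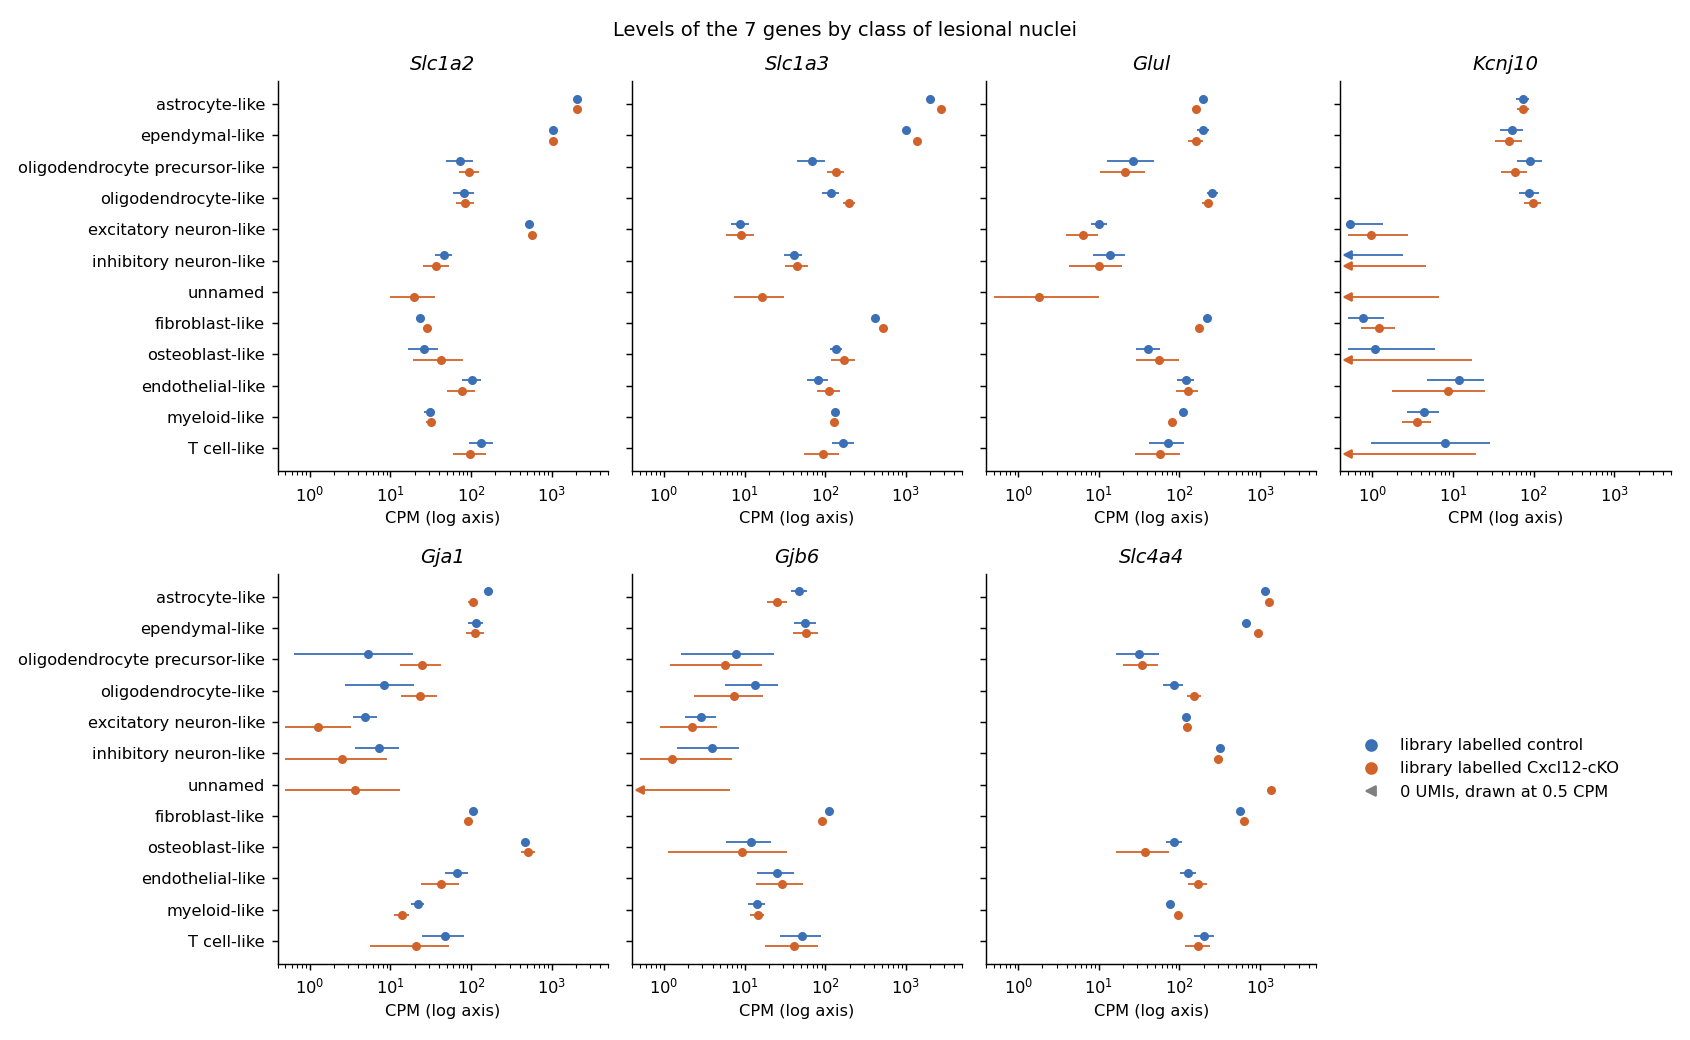
CPM (log axis) of each of the 7 genes by class of lesional nuclei, as points with 95% Poisson intervals drawn down to 0.5 CPM, for the control- and cKO-labelled libraries in groups of at least 20 nuclei. Slc1a2 peaked in astrocyte-like nuclei at 2069.5 and 2087 CPM, whereas Gjb6 peaked in fibroblast-like nuclei at 110 and 90.5 CPM.

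Since fibroblast-like nuclei were the most numerous lesional class, with 4176 and 4111 nuclei, they held most of the lesional UMIs of 5 members in both libraries. They accounted for 85.7% and 85.9% of Gjb6 UMIs in kept lesional nuclei, 60.7% and 71.8% of Gja1, 69.7% and 67.6% of Glul and 64.5% and 63.4% of Slc4a4. For Slc1a3 the fibroblast-like share was 54.8% and 50.5% and the astrocyte-like share 28.7% and 36.1%. Astrocyte-like nuclei held 37.6% and 56.7% of Slc1a2 and 40.3% and 46.0% of Kcnj10. Excitatory-neuron-like nuclei held 45.3% and 24.0% of lesional Slc1a2, with 504 and 235 such nuclei in the lesion. A bulk measurement of such a lesion would sum over these classes, and fewer cells of a type and less RNA per cell could not be told apart in it.

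**Figure D2:**
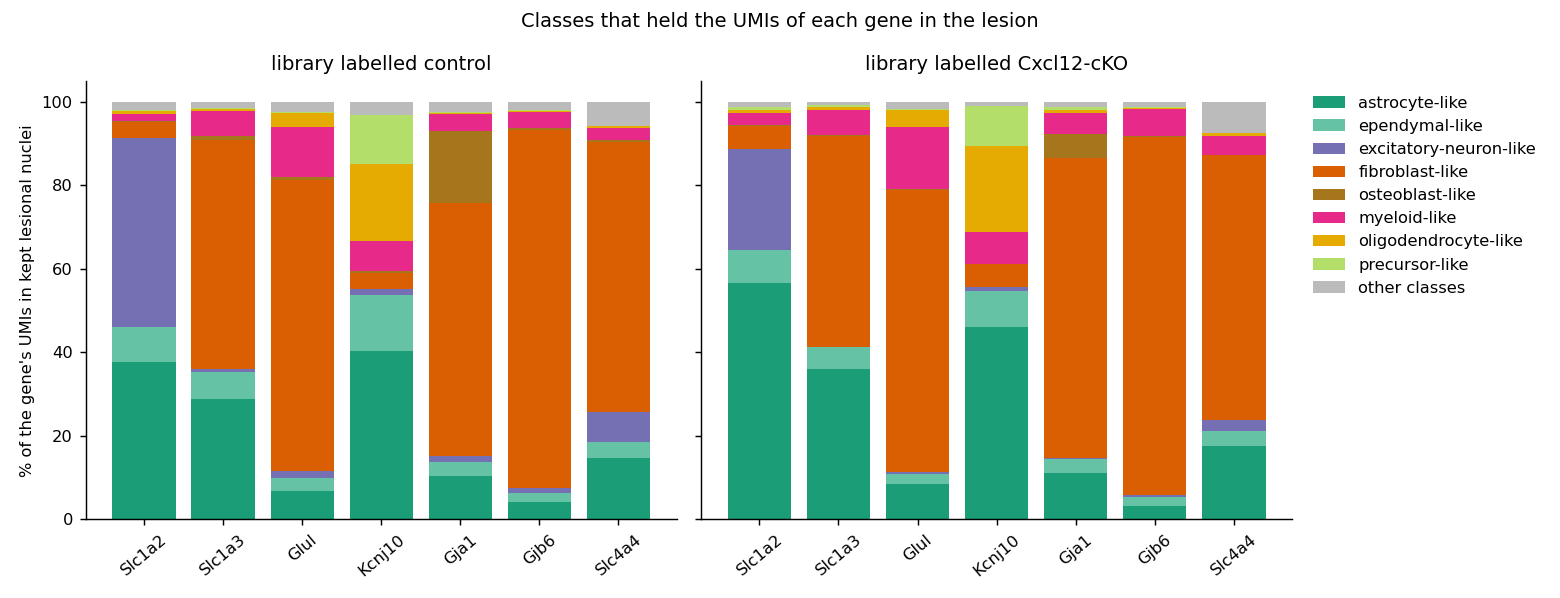
Stacked bars of the percent of each gene's UMIs in kept lesional nuclei that each class held, for the control-labelled library (left) and the cKO-labelled library (right). Fibroblast-like nuclei made up 85.7% and 85.9% of Gjb6 but 3.83% and 5.62% of Slc1a2.

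The fibroblast-like class consisted of 2 clusters, between which 4 members differed in the same direction in both libraries. Cluster 2, with Slc6a13, Ranbp3l, Lama1 and Aldh1a2 among its leading genes, held 821 and 1039 CPM of Slc1a3 in the lesion, against 154 and 185 CPM in cluster 0, led by Slc47a2, Slc26a7 and Col14a1. Glul was at 301 and 288 CPM in cluster 2 and 167 and 102 CPM in cluster 0. Gjb6 was at 165 and 147 CPM in cluster 2 and 74.3 and 54.3 CPM in cluster 0. Slc4a4 had the reverse order, with 489 and 459 CPM in cluster 2 and 613 and 744 CPM in cluster 0. The 4 differences exceeded the counting intervals in both libraries and had the same direction in both. They are descriptions, since the clusters were formed from the expression of these nuclei. Gja1 had opposite orders in the libraries, at 89.9 and 97.5 CPM in cluster 2 and 117 and 88.7 CPM in cluster 0. Slc1a2 was alike, at 23.4 and 28.1 CPM in cluster 2 and 23.3 and 28.3 CPM in cluster 0. Kcnj10 was at 1.72 CPM or below in both.

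The astrocyte-like subclusters differed in the members, although the members were left out of clustering. Subcluster 2, with Slc7a10 and Hes5 among its leading genes, held nearly all parenchymal astrocyte-like nuclei, 33 of 37 and 42 of 46, and 57 and 20 lesional ones. Subcluster 3, with Ptx3 and Steap4 among its leading genes, held 168 and 293 lesional nuclei. Subcluster 1, with Gfra2 and Kcna1 among its leading genes and 6 of 8 oligodendrocyte precursor markers also up, held 193 and 131 lesional nuclei. Within the lesion Slc1a2 was at 5574 and 5166 CPM in subcluster 2, 2116.5 and 2241 CPM in subcluster 3 and 808 and 993 CPM in subcluster 1. Slc1a3 instead was highest in subcluster 3, at 2807.5 and 3281 CPM, followed by subcluster 2 at 2422 and 2296 CPM and subcluster 1 at 775 and 905 CPM. Glul took the same order as Slc1a2, at 641 and 419 CPM, 162 and 174 CPM, and 80.9 and 58.4 CPM. Gjb6 was at 21.0 and 20.7 CPM in subcluster 3 and at 59.9 and 40.4 CPM in subcluster 1, so that it did not follow Slc1a2. Kcnj10 was at 132 and 167 CPM in subcluster 2, 57.8 and 67.5 CPM in subcluster 3 and 71.2 and 76.4 CPM in subcluster 1. Since cells of a cluster were chosen by their expression, these differences are descriptions.

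In the comparison of regions, 4 of the 7 members were lower in lesional than in parenchymal astrocyte-like nuclei by more than 1.5-fold, with an interval that left out 0 on the log2 scale, in both libraries. They were Slc1a2, Glul, Gja1 and Gjb6. None of the 7 was higher by that measure in either library. Of all genes with at least 20 UMIs, 5.45% of 9058 were lower and 8.45% were higher in both libraries. Within the single libraries 8.66% of 9269 genes were lower and 14.0% higher in the control-labelled library, and 10.4% of 10070 were lower and 14.9% higher in the cKO-labelled library. The median log2 ratio of lesion over parenchyma was -0.79 over the 7 members and 0.13 over all genes in the control-labelled library, and -1.33 and 0.10 in the cKO-labelled library. The regions differed in their subclusters, since subcluster 2 held 89.2% and 91.3% of parenchymal but 13.6% and 4.50% of lesional astrocyte-like nuclei.

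Slc1a2 showed the widest gap in the control-labelled library. It was at 9236 CPM (8802 to 9686) in the parenchyma and 2069.5 CPM in the lesion of the control-labelled library, a 4.46-fold difference (log2 ratio -2.16, -2.24 to -2.07). In the cKO-labelled library it was at 8583 CPM (8223 to 8955) and 2087 CPM, a 4.11-fold difference (log2 ratio -2.04, -2.12 to -1.96). By mouse, parenchymal levels were 8760 and 9889 CPM in the control-labelled female and male and 9346 and 7576 CPM in the cKO-labelled ones. The lesional levels were 2183, 1978, 2025 and 2007.5 CPM in the same order. Each mouse had 13 to 23 such parenchymal nuclei. All 4 mice were thus lower in the lesion, and parenchymal and lesional values did not overlap. At 1000 UMIs per nucleus the median parenchymal nucleus held 8 Slc1a2 UMIs in either library and the median lesional nucleus 1. Of the lesional nuclei 35.8% and 27.4% then had no Slc1a2 UMI, against 0% and 2.17% of parenchymal ones. Excitatory-neuron-like nuclei held 88.4% and 85.4% of the Slc1a2 UMIs in kept parenchymal nuclei of the control- and cKO-labelled libraries. The part of free RNA in the regional ratios of Slc1a2 was not tested.

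Slc1a3, the other astrocyte glutamate transporter gene, differed less between regions, and its values moved with the choice of nuclei. Its log2 ratio of lesion over parenchyma was -0.45 (-0.58 to -0.31) in the control-labelled library and 0.23 (0.10 to 0.35) in the cKO-labelled library, so the sign differed between libraries and neither passed 1.5-fold. By mouse it was -0.48 and -0.51 in the control-labelled female and male, and 0.05 and 0.03, with intervals that held 0, in the cKO-labelled ones. With the nuclei of highest Scrublet doublet score removed, which left 241 and 149 lesional and 33 and 41 parenchymal astrocyte-like nuclei, Slc1a3 was past 1.5-fold lower in the lesion of both libraries, at -1.25 (-1.41 to -1.09) and -1.22 (-1.39 to -1.05). After thinning it was at -0.83 (-1.11 to -0.53) in the control-labelled library. Glul, which acts on the glutamate taken up, was at 572 CPM in the parenchyma and 194 CPM in the lesion of the control-labelled library (log2 ratio -1.56, -1.88 to -1.22) and at 442 and 159 CPM in the cKO-labelled library (-1.48, -1.79 to -1.15). It was lower in the lesion of each of the 4 mice, with log2 ratios between -1.90 and -1.23.

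Among the connexins, Gja1 went from 283 CPM in the parenchyma to 165 CPM in the lesion of the control-labelled library (log2 ratio -0.79, -1.22 to -0.32) and from 261 to 105 CPM in the cKO-labelled library (-1.33, -1.72 to -0.89). Gjb6 went from 125 to 47.1 CPM (-1.43, -2.10 to -0.67) and from 128 to 25.2 CPM (-2.36, -3.02 to -1.67). These parenchymal values rest on 52 and 65 UMIs of Gja1 and 23 and 32 UMIs of Gjb6. In the control-labelled female, Gja1 (-0.67, -1.29 to 0.06) and Gjb6 (-0.53, -1.67 to 1.09) had intervals that held 0, and both were lower in the lesion of the other 3 mice. For Kcnj10 this depth did not show a difference, with log2 ratios of -0.54 (-1.21 to 0.28) and -0.23 (-0.86 to 0.54) on 19 and 21 parenchymal UMIs. Slc4a4 was lower in the lesion by less than 1.5-fold, with log2 ratios of -0.56 (-0.73 to -0.38) and -0.21 (-0.37 to -0.05).

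**Figure D3:**
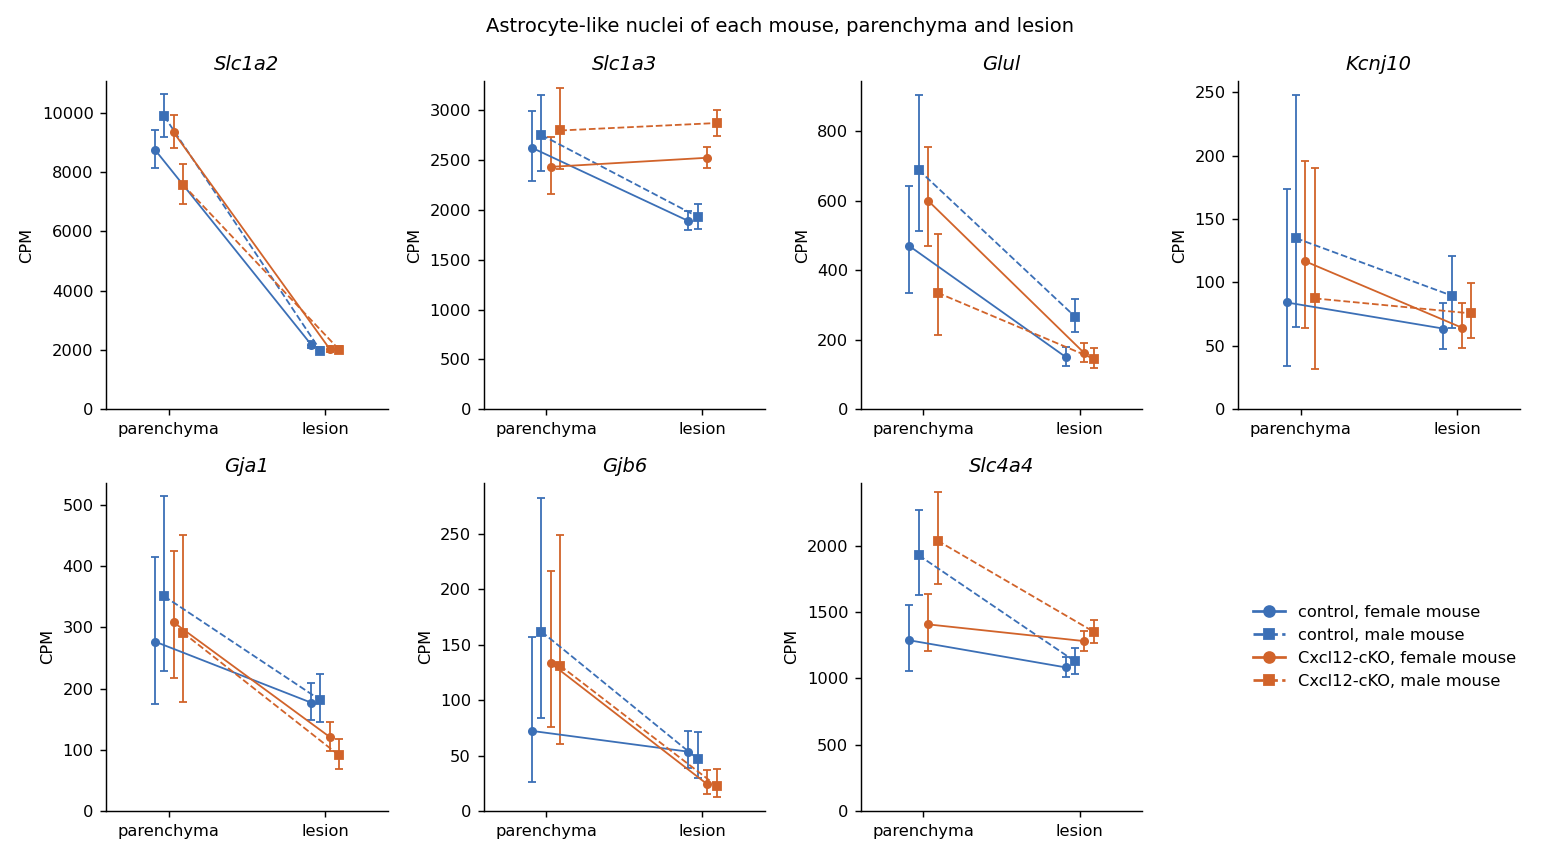
CPM of each gene in parenchymal and lesional astrocyte-like nuclei of the 4 mice, with 95% Poisson intervals; circles and solid lines are female mice, squares and dashed lines male mice, and the axes start at 0. Slc1a2 lay between 7576 and 9889 CPM in the parenchyma and between 1978 and 2183 CPM in the lesion, whereas Slc1a3 was lower in the lesion only of the control-labelled mice.

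Subcluster 2 was the only astrocyte-like subcluster with at least 20 nuclei in both regions, and within it most of the regional differences were smaller. There Slc1a2 was at 10129 CPM in the parenchyma and 5574 CPM in the lesion of the control-labelled library (log2 ratio -0.86, -0.97 to -0.75) and at 9643 and 5166 CPM in the cKO-labelled library (-0.90, -1.05 to -0.75). It was the 1 member past 1.5-fold in both libraries within this subcluster. Glul was at 628 CPM in the parenchyma and 641 CPM in the lesion of the control-labelled library (0.03, -0.35 to 0.41) and at 498 and 419 CPM in the cKO-labelled library (-0.24, -0.84 to 0.31). Gja1 and Gjb6 were past the fold in the cKO-labelled library alone, on 12 and 2 lesional UMIs. Gfap, the intermediate filament gene used as a marker of reactive astrocytes, was at 105 and 96.0 CPM in parenchymal and 956 and 1076 CPM in lesional nuclei of this subcluster.

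The share of Slc1a2 in the UMIs of Slc1a2 and Slc1a3, summed over the nuclei of a group, gives the same contrast without the total as denominator. It was 77.5% (75.7 to 79.2%) and 78.7% (77.1 to 80.2%) in parenchymal astrocyte-like nuclei of the control- and cKO-labelled libraries. In the lesion it was 69.7% and 69.2% in subcluster 2, 51.0% and 52.3% in subcluster 1 and 43.0% and 40.6% in subcluster 3. The order was the same in both libraries and the intervals of neighbouring groups did not overlap. Over all lesional astrocyte-like nuclei the share was 51.3% (50.0 to 52.5%) in the control-labelled library and 43.4% (42.4 to 44.4%) in the cKO-labelled library.

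**Figure D4:**
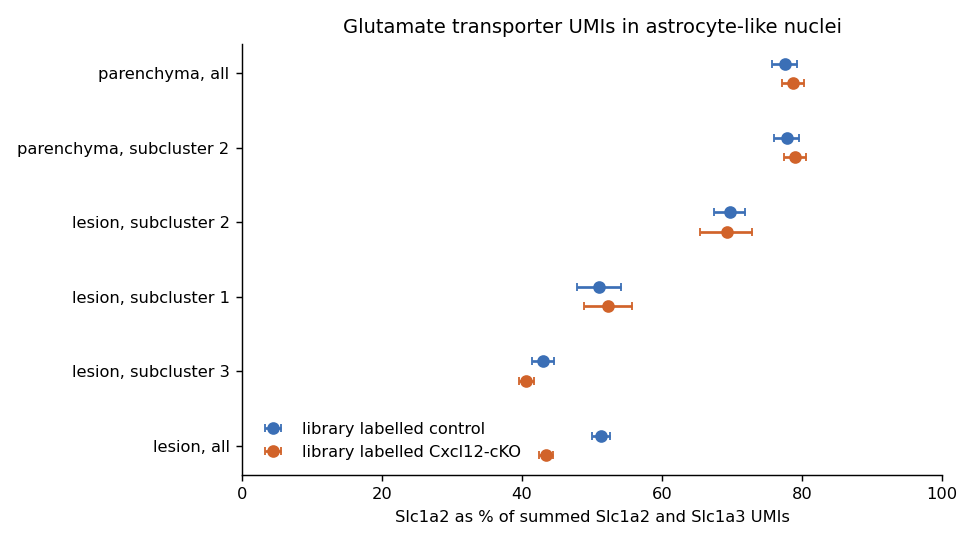
Slc1a2 UMIs as a percent of summed Slc1a2 and Slc1a3 UMIs in groups of astrocyte-like nuclei, with exact binomial 95% intervals, for the control- and cKO-labelled libraries. Parenchymal nuclei lay at 77.5% and 78.7%, and lesional subcluster 3 at 43.0% and 40.6%.

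Regional differences of the connexin genes were also found in fibroblast-like nuclei. Gja1 was at 308 and 314 CPM in 51 and 50 parenchymal nuclei and at 107 and 92.1 CPM in the lesion (log2 ratios -1.54, -1.88 to -1.16, and -1.78, -2.12 to -1.39). Gjb6 was at 241 and 216 CPM in the parenchyma and 110 and 90.5 CPM in the lesion (-1.15, -1.52 to -0.71, and -1.27, -1.68 to -0.80). Slc1a3 went the other way, from 188 and 338 CPM to 416 and 519 CPM (1.13, 0.71 to 1.62, and 0.61, 0.29 to 0.98). Each mouse had 11 to 25 such parenchymal nuclei. By mouse, the Gja1 interval left out 0 in each. The Gjb6 interval held 0 in the control-labelled male (-0.59, -1.27 to 0.31) and the cKO-labelled female (-0.67, -1.40 to 0.30). The Slc1a3 interval held 0 in the cKO-labelled male (0.34, -0.36 to 1.26). In excitatory-neuron-like nuclei Slc1a2 was slightly higher in the lesion, at 523 against 449 CPM and 572 against 425 CPM (log2 ratios 0.22, 0.17 to 0.27, and 0.43, 0.36 to 0.50). This is the reverse of its direction in astrocyte-like nuclei. Slc1a2 was lower in the lesion in other classes too. In oligodendrocyte-like nuclei the log2 ratios were -4.32 and -2.54. Inhibitory-neuron-like nuclei held 45.7 and 37.3 CPM in the lesion against 65.4 and 75.9 CPM. Intervals of both classes lay below 0 in both libraries. In the cKO-labelled library so did those of endothelial-like (-1.61), myeloid-like (-1.86) and fibroblast-like nuclei (-1.54). In the control-labelled library the myeloid-like and fibroblast-like intervals held 0.

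Other genes of the same pathways were counted as whole lists for the regional comparison. Of 10 genes for glutamate and glutamine handling, 4 were lower and 5 higher in lesional astrocyte-like nuclei labelled control, and 3 lower and 2 higher in the cKO-labelled ones. The metabotropic glutamate receptor gene Grm3 had log2 ratios of -2.54 (-2.71 to -2.36) and -3.42 (-3.59 to -3.24), and the cystine and glutamate exchanger gene Slc7a11 of -2.49 (-2.87 to -2.10) and -3.10 (-3.50 to -2.71). The amino acid transporter gene Slc38a1 was higher, at 1.97 (1.39 to 2.68) and 1.35 (0.86 to 1.93). In the control-labelled library, Slc1a1, which encodes the transporter best known from neurons, had 51 lesional and 0 parenchymal UMIs, with a lower limit of 0.62 for the log2 ratio. In the cKO-labelled library Slc1a1 had 49 and 6 UMIs, or 24.2 and 24.1 CPM (-0.09, -1.22 to 1.52). Slc38a2, a glutamine carrier gene, was at 0.84 (0.08 to 1.83) in the cKO-labelled library.

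The potassium, sodium pump and water list of 10 genes had 4 lower and 1 higher in the control-labelled library and 5 lower and 1 higher in the cKO-labelled library. Kcnj16, which encodes a channel subunit that pairs with the Kcnj10 product, was at -2.09 (-3.06 to -0.98) and -1.80 (-2.88 to -0.53). The sodium pump subunit gene Atp1b2 was at -1.08 (-1.69 to -0.38) in the control-labelled library and the potassium channel gene Kcnk2 at -1.38 (-1.89 to -0.82) in the cKO-labelled library. The water channel gene Aqp4 was the 1 higher gene in both, at 1.13 (0.80 to 1.51) and 1.70 (1.36 to 2.08). Of 10 other connexin and pannexin genes 1 had enough UMIs, Gjc3, which was higher in the lesion at 183 against 5.45 CPM (log2 ratio 4.49, 2.58 to 10.4, on 1 parenchymal UMI) and 100 against 36.1 CPM (interval 0.52 to 2.62). Of 9 genes for bicarbonate, proton and lactate transport, 8 had enough UMIs, with 1 lower and 2 higher in the control-labelled library and 0 lower and 2 higher in the cKO-labelled library. The monocarboxylate transporter gene Slc16a1 was among the higher ones in both, at 2.13 (0.55 to 5.51) and 2.21 (0.85 to 4.72) on 2 and 3 parenchymal UMIs. The bicarbonate transporter gene Slc4a7 was at 1.98 (0.76 to 4.04) and the carbonic anhydrase gene Car2 at -1.67 (-2.48 to -0.75) in the control-labelled library.

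The astrocyte reactivity list went the other way from Slc1a2, Glul, Gja1 and Gjb6, the members lower in the lesion of both libraries. Slc1a3, Kcnj10 and Slc4a4 did not pass 1.5-fold in either library. The list includes Gfap, which was also a marker used to name astrocyte-like nuclei. Of its 20 genes, 12 of 15 with enough UMIs were higher and 0 lower in the lesion of the control-labelled library, and 14 of 16 higher and 0 lower in that of the cKO-labelled library. Cd44, which encodes a hyaluronan receptor, had log2 ratios of 3.68 (2.73 to 5.10) and 4.10 (3.29 to 5.24). The ferroxidase gene Cp was at 3.15 (2.61 to 3.81) in the control-labelled library, and Steap4, a metalloreductase gene, at 4.37 (2.46 to 10.3) on 1 parenchymal UMI in the cKO-labelled library. The list's median log2 ratio was 1.75 and 2.93, or 1.52 and 2.71 with the gene listed at 0 in the parenchyma set at its bound.

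In the comparison of libraries, 2 of the 7 members, Gja1 and Gjb6, were lower by more than 1.5-fold in lesional astrocyte-like nuclei labelled Cxcl12-cKO, and 0 were higher. Of 11478 genes tested, 4.16% were lower and 3.13% higher. The median log2 ratio of Cxcl12-cKO over control was 0.01 over the members and -0.02 over all genes. Gja1 was at 165 CPM (145 to 186) in the control-labelled library and 105 CPM (91.1 to 120) in the cKO-labelled library, a log2 ratio of -0.65 (-0.92 to -0.39). Gjb6 was at 47.1 and 25.2 CPM on 75 and 51 UMIs, a log2 ratio of -0.90 (-1.45 to -0.37). Both sexes gave the same direction, with Gja1 at 177 and 181 CPM in the control-labelled female and male and 121 and 90.7 CPM in the cKO-labelled ones. Gjb6 was at 53.5 and 46.8 CPM in the control-labelled mice and 24.1 and 22.7 CPM in the cKO-labelled ones, and the values of the 2 libraries did not overlap for either gene. In the parenchyma neither gene differed detectably, with log2 ratios of -0.12 (-0.67 to 0.44) for Gja1 and 0.03 (-0.78 to 0.88) for Gjb6. The calls depended on how nuclei were chosen and weighted: after thinning to 1000 UMIs neither passed (Gja1 -0.48, -1.04 to 0.07; Gjb6 -0.17, -1.22 to 0.87), and with nuclei holding fibroblast or myeloid UMIs removed Gja1 passed (-0.79, -1.19 to -0.39) and Gjb6 did not (-0.71, -1.52 to 0.09).

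The subclusters made up different shares of these nuclei in the 2 libraries. Subcluster 3 held 168 of the 418 control-labelled lesional astrocyte-like nuclei (40.2%, 35.5 to 45.1%) and 293 of the 444 cKO-labelled ones (interval 61.4 to 70.4%), whereas subcluster 1 was at 46.2% and 29.5% and subcluster 2 at 13.6% and 4.50%. Within subcluster 3 the Gja1 ratio was as large as over all nuclei, at 185 and 108 CPM (log2 ratio -0.78, -1.11 to -0.44). In subclusters 1 and 2 it was -0.36 (-0.98 to 0.23) and -0.75 (-1.84 to 0.12). The Gjb6 ratio was not found in subcluster 3, where it was at 21.0 and 20.7 CPM (-0.04, -0.94 to 0.95), and was -0.55 (-1.47 to 0.28) in subcluster 1 and -1.83 (-5.25 to -0.09) in subcluster 2 on 22 and 2 UMIs. Gja1 was also lower in lesional myeloid-like nuclei labelled Cxcl12-cKO, at 21.9 and 13.8 CPM (-0.66, -1.08 to -0.25), a class that should have little of it, and the part of free RNA in the astrocyte-like ratio was not tested. Gjb6 did not differ detectably in myeloid-like nuclei (0.03, -0.42 to 0.50). Its astrocyte-like level lay within the T-cell-like range in both libraries, and the part of free RNA in its ratio was not tested either.

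Slc1a3 was higher in the cKO-labelled library by less than 1.5-fold, with a log2 ratio of 0.47 (0.40 to 0.53) in lesional astrocyte-like nuclei, 0.42 (0.32 to 0.51) between females and 0.57 (0.46 to 0.69) between males. Within subclusters it was 0.22 (0.03 to 0.42), -0.07 (-0.32 to 0.16) and 0.22 (0.15 to 0.30) for subclusters 1, 2 and 3. With the nuclei of highest Scrublet score removed, Slc1a3 was at -0.12 (-0.27 to 0.03). The direction was not particular to astrocyte-like nuclei. Among 16 other groups of a class and region with at least 20 Slc1a3 UMIs, 8 had an interval above 0 and 2 below it. Parenchymal excitatory-neuron-like nuclei, where little of this gene was counted, were at 5.58 and 10.9 CPM (0.97, 0.73 to 1.21), while parenchymal astrocyte-like nuclei labelled Cxcl12-cKO were not higher, at 2679 and 2320 CPM. The part of a difference between whole libraries was not tested.

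The remaining members differed less between libraries. Slc1a2 was at a log2 ratio of 0.01 (-0.05 to 0.08). Kcnj10 was at 0.01 (-0.35 to 0.38), and at -0.74 (-1.55 to 0.02) after thinning. Slc4a4 was at 0.16 (0.07 to 0.25). Glul, at -0.29 (-0.52 to -0.06), differed between mice, with 150 and 161 CPM in the control- and cKO-labelled females (0.10, -0.26 to 0.47) and 266 and 145 CPM in the male mice (-0.87, -1.27 to -0.48). The difference between the mice was not tested.

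**Figure D5:**
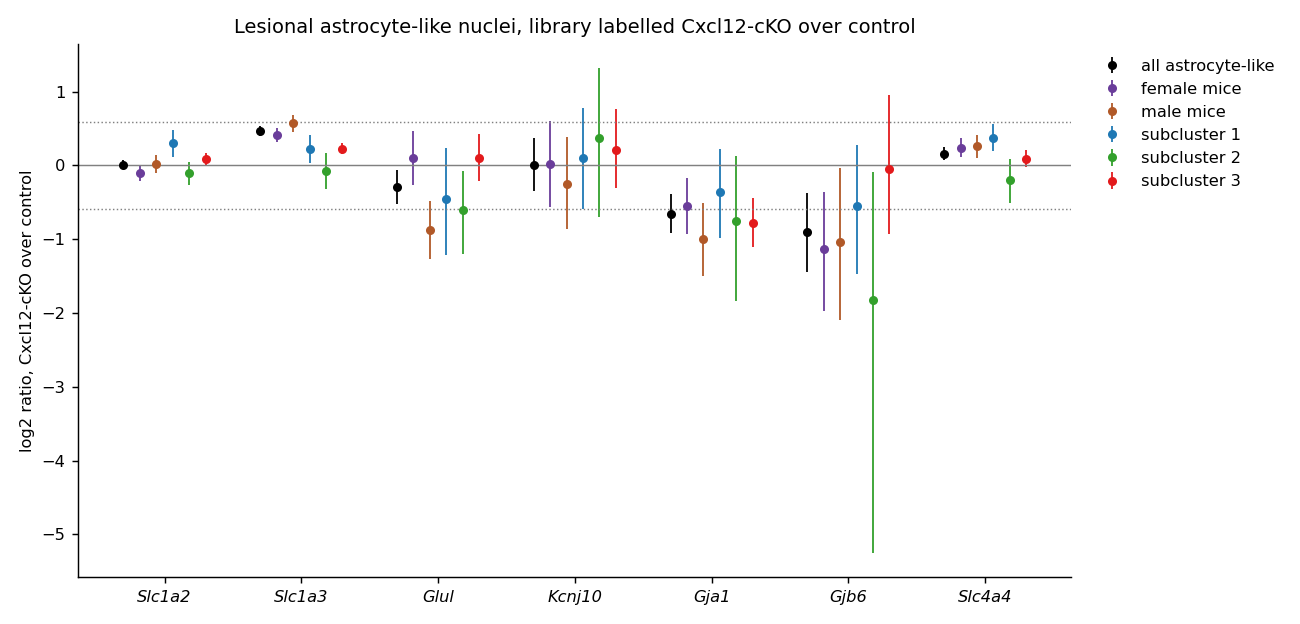
Log2 ratio of the cKO-labelled library over the control-labelled library for each gene in lesional astrocyte-like nuclei, with exact 95% counting intervals, for all nuclei, for the mice of each sex and for each subcluster; dotted lines mark 1.5-fold. Gja1 was below 0 in all 6 groups, and Gjb6 was near 0 in subcluster 3 at -0.04.

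Most genes of the partner lists did not pass 1.5-fold between the libraries in lesional astrocyte-like nuclei. Of the 10 genes for glutamate and glutamine handling, 3 were lower, with Grm3 at -0.89 (-1.06 to -0.72) and Slc7a11 at -0.81 (-1.19 to -0.45), and 1 was higher, the neutral amino acid transporter gene Slc1a4 at 0.72 (0.27 to 1.19). None of the 10 genes for potassium, the sodium pump and water passed the fold. Gjc3, another connexin gene, was lower at -0.87 (-1.13 to -0.60). Of 8 genes for bicarbonate, proton and lactate transport 1 was higher, the anion exchanger gene Slc4a2 at 0.81 (0.10 to 1.58). Of 19 reactivity genes 1 was lower, the small heat shock protein gene Cryab at -1.39 (-2.86 to -0.15), and 1 higher, the protease inhibitor gene Serpina3n at 0.62 (0.24 to 1.00). The Cryab value rests on 17 UMIs in the control-labelled library and 8 in the cKO-labelled library. The median log2 ratio was 0.32 over the reactivity genes, -0.22 over the glutamate and glutamine genes and -0.02 over all genes.

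In lesional fibroblast-like nuclei, the class that the Cre driver is named for, 0 of the 7 members passed 1.5-fold in either direction, against 3.46% of 16635 genes higher and 2.31% lower. The median log2 ratio of the members was 0.17, and 0.01 over all genes. Gja1 was at -0.21 (-0.32 to -0.10), Gjb6 at -0.28 (-0.39 to -0.18) and Glul at -0.33 (-0.41 to -0.26), whereas Slc1a3 was at 0.32 (0.27 to 0.37) and Slc4a4 at 0.17 (0.12 to 0.21). These values rest on 1344 to 9398 UMIs in the cKO-labelled library. By mouse, Slc1a3 was at 0.72 (0.65 to 0.79) between the females, past 1.5-fold, and at 0.0028 (-0.08 to 0.09) between the males. Glul was at 0.06 (-0.06 to 0.19) between the females and -0.56 (-0.68 to -0.44) between the males. Gjb6 was at -0.34 (-0.51 to -0.16) and -0.28 (-0.45 to -0.11), the only one of the 5 genes whose interval left out 0 in both sexes. Gja1 was at -0.14 (-0.31 to 0.03) and -0.27 (-0.44 to -0.10), and Slc4a4 at 0.04 (-0.04 to 0.11) and 0.19 (0.12 to 0.25). The differences between mice were not tested. Of the partner lists, 1 of 10 glutamate and glutamine genes was lower (the glutamine carrier gene Slc38a3, -0.60, -1.20 to -0.02), 1 of 9 potassium and water genes higher (Aqp4, 1.13, 0.60 to 1.70), 1 of 6 other connexin and pannexin genes higher (Panx1, 0.62, 0.30 to 0.96) and 0 of 9 bicarbonate, proton and lactate genes past the fold. Of 20 reactivity genes 4 were higher, with the complement gene C3 at 1.60 (1.29 to 1.92) and Lcn2 at 0.94 (0.33 to 1.60), and 1 lower, the matrix gene Tnc at -0.79 (-0.89 to -0.68). Slc38a3 rested on 63 and 43 UMIs in the control- and cKO-labelled libraries, Aqp4 on 42 and 96 and Lcn2 on 33 and 66. Aqp4 was at 2.93 and 6.46 CPM here, against 854 and 892 CPM in lesional astrocyte-like nuclei. The part of free RNA or doublets in these values was not tested.

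Over 38 groups of a class, region and library with at least 20 nuclei, the members did not follow a single pattern. The groups share libraries and differ in depth, so correlations of log2(CPM + 1) are descriptions. Among the members, Slc1a3 and Glul were most alike (Pearson's r = 0.85) and Gja1 and Gjb6 had r = 0.77, while Slc1a2 had r = 0.48 with Slc1a3 and Glul and Slc4a4 had r = 0.09. Out of 13832 genes, those closest to Slc1a2 were Gm40578, Scg3 and Rorb (0.85, 0.85 and 0.84). The closest to Slc1a3 were Sugct, Appl2 and Mir99ahg (0.94, 0.92 and 0.91), and to Glul Appl2, Pbxip1 and Dock1 (0.91, 0.91 and 0.90). Kcnj10 was closest to Cdh19, Nkx2-2os and Hepacam (0.94, 0.92 and 0.91). Gja1 was closest to Fgfr1, Ptpn13 and Smad6 (0.92, 0.91 and 0.90). Among those closest to Gjb6 were Clybl and Hsdl2 (0.87 and 0.87). Slc4a4 had the weakest likeness, with Ephx2, B3galt1 and Frem2 at 0.80, 0.77 and 0.76.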

How the data were processed

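Single nuclei were profiled with the Chromium 3′ v3.1 chemistry. Per the submitters' processing notes in the labels, the authors ran Cell Ranger 9.0.0 on the GRCm39 build and assigned barcodes to regions by tag. They deposited 4 filtered matrices of raw UMI counts. Counts of nuclear RNA depend on each gene's length and introns, so CPM values were not compared between genes. The shares of Slc1a2 and of Gjb6 in the summed UMIs of a gene pair carry this dependence. They are given for comparison between groups of nuclei, not as relative amounts of the paired genes.

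Of 23489 barcodes, those in the lowest or highest 2.5% by UMIs or genes or the highest 2.5% by mitochondrial share were removed, which left 21743. Nuclei were clustered in scanpy 1.11.5 (3000 variable genes, 30 principal components, 20 neighbours, Leiden resolution 0.25) without the members, Cxcl12, its receptor genes, sex-linked or mitochondrial genes, and the astrocyte-like cluster was clustered again with 2000 variable genes. Clusters took the class whose markers were highest, and 1 cluster in which no class's markers led took no name. No doublets were removed in the main analysis; removing the 10% with the highest Scrublet scores was an alternative. Nuclei were assigned to the female or male mouse by UMIs of Xist or of 4 Y-linked genes.

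UMIs were summed per class, region and library. Intervals cover counting error only, not the spread between mice, and free RNA was not subtracted. Log2 ratios used 0.5 added to each sum and an exact conditional binomial interval; a gene was counted as past 1.5-fold when its interval also left out 0 and it had at least 20 UMIs. The ratio and interval code was tested on simulated data with known changes. Named were the members, at most 2 genes per direction of each partner list in each comparison, and the 3 genes of at least 500 UMIs most like each member; Gfap in subcluster 2, and leading genes of clusters, were added after their values were seen. Some genes that this rule would name are not reported here. The members and lists were chosen with earlier results of these data known. Alternatives numbered 15, with 4 more added after seeing the data. Python 3.11.15, numpy 2.4.6, scipy 1.17.1 and pandas 2.3.3 were used.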

Additional observations from a re-analysis of the deposited data

How the results depend on the processing

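No paired analysis was possible because the labels give each genotype 1 library and no replicate numbers to pair. The mice were told apart only by sex-linked UMIs, and lesion and parenchyma are given within each mouse as values; a fit over the 4 mice was not run. The values were recomputed under 15 alternatives and 4 groupings of subclusters chosen after seeing the data. Of 463 values for single members, 335 stayed within the counting interval of the reported value, 127 left it, and 1 that had been past 1.5-fold changed sign, that of Glul in the lesion over the parenchyma of the control-labelled library, at 0.026 within subcluster 2. Values not past the fold changed sign too. Slc1a3 in the lesion over the parenchyma went from 0.23 to as low as -1.223 in the cKO-labelled library, below 0 in 4 of 17 settings, and to as high as 0.089 in the control-labelled one, above 0 in 2 of 17. Slc1a3 between libraries in lesional astrocyte-like nuclei went from 0.47 to -0.121, below 0 in 2 of 19. Slc1a2 was lower in the lesion in 17 of 17 settings in both libraries, and Gja1 and Gjb6 were lower in the cKO-labelled lesion in 19 of 19, though not always past the fold.

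The count of members past 1.5-fold between libraries in lesional astrocyte-like nuclei went from 2 to 1 with no nucleus filter, with Leiden resolution 0.5, with the members kept in clustering, with whole astrocyte-like clusters, with the female mice alone, with nuclei weighted alike, with nuclei holding fibroblast or myeloid UMIs removed and in subcluster 3 alone. It was 0 after thinning to 1000 UMIs and in subcluster 1 alone. The count of members past 1.5-fold in both libraries between regions went from 4 to 2 with each nucleus named by its own markers, with the female mice alone, after thinning and with nuclei holding fibroblast or myeloid UMIs removed, and to 1 in subcluster 2 alone. The members' median log2 ratio of lesion over parenchyma in the control-labelled library was -0.793, and -0.306 by own markers and -0.185 in subcluster 2. In the cKO-labelled library it was -1.325, and -0.828 by own markers, -0.826 after thinning, -0.775 with at least 100 UMIs and -0.237 in subcluster 2. In lesional fibroblast-like nuclei the median between libraries was 0.166, and -0.201 by own markers, 0.05 between females, -0.133 between males, -0.009 after thinning and -0.022 with at least 100 UMIs. The causes of these moves were not tested. Parenchymal astrocyte-like nuclei numbered 37 and 46, which limits the regional values of Kcnj10 and Gjb6 most.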
